A study of Homo sapiens with 12 samples.

Results

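The genes described here make ribosomes. They are 37 named genes for nucleolar proteins and ribosome assembly factors, together with MYC, and they were found in the deposited expression table by matching its Ensembl identifiers to gene symbols. Of the 37, 35 had a row among the 20595 genes of the table. RRP9 and RRS1 were not analysed here. The samples are poly-A RNA of A549 and of H1792, a pair of established cell lines from human lung adenocarcinoma in which the MDM2 gene is amplified. Cells were kept for 48 h either in the solvent DMSO or with 1 μM of RG7112, a nutlin-family inhibitor of MDM2. Each of the 4 groups had 3 replicates, which gave 12 samples, and each line stands for 1 tumor and 1 p53 background only. In most of the study's text p53 is WT in A549 and mutant in H1792, and this was followed here, although a sentence and a legend of the study give the reverse. The dose comes from the labels, whereas the column names carry 0.1 μM. The labels do not say whether replicates were separate cultures, so the p-values measure the spread between these samples, which may be technical.

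Ribosomes are built in the nucleolus. RNA polymerase I copies the ribosomal DNA into a long precursor, small nucleolar ribonucleoproteins (snoRNPs) guide its chemical modification and cutting, and assembly factors fold the pieces with ribosomal proteins into the small and large subunits. MYC is a transcription factor known to drive many of these genes, and growing tumor cells depend on a high output of ribosomes. MDM2 marks p53 for degradation, and nutlin-type inhibitors release p53 from MDM2. Free ribosomal proteins can also bind MDM2, which ties nucleolar function to p53.

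Library totals ranged from 2011916 to 6218825 counts, so that 3 counts stood for 0.465 to 1.43 CPM, a gene's share of the counts of its library. CPM values here are scaled by the TMM method over all 12 samples, with errors as SDs over 3 replicates. A change was called where the Benjamini-Hochberg adjusted p of the edgeR quasi-likelihood test, over all genes tested, was under 0.05, and a DEG also had an absolute log2 fold change over 1. The p53 target genes MDM2 and CDKN1A rose in A549, MDM2 from 8.54 ± 4.99 to 69.2 ± 9.27 CPM (adjusted p = 0.010) and CDKN1A from 37.2 ± 11.4 to 445 ± 431 CPM (adjusted p = 0.025). In H1792 neither was called, with adjusted p of 0.93 and 0.88. The epithelial keratins KRT7, KRT8 and KRT18 averaged at least 191 CPM in every group, and the lung lineage markers NKX2-1 and SFTPB had at most 1 count in any sample. They come from 9 epithelial and lung markers, of which 6 passed the filter on low counts in A549 and 5 in H1792. With DMSO, 6 of the 7 tested over 12 samples were higher in A549 than in H1792 (background 25.6%). The keratins therefore do not stand for the whole list. Of 5 markers of immune, endothelial, fibroblast and red cells, 4 had at most 3 counts in any sample, and the collagen gene COL1A1 was at 279 ± 23.9 CPM in H1792 with DMSO and 233 ± 45.8 CPM with RG7112. In A549, replicate 3 stood apart in both treatments: its log2 values correlated with those of replicates 1 and 2 at 0.899 to 0.922, against 0.937 to 0.948 between replicates 1 and 2. RNA of bulk cultures is measured relative to its own total, so fewer cells of a kind and less RNA per cell cannot be told apart.

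Several members were listed at values too low to describe. NOP10, a part of the H/ACA snoRNP, and UTP20, a small subunit processing factor, had at most 3 counts in every sample. NCL, which encodes nucleolin, one of the most abundant nucleolar proteins, was listed at 0 to 6.98 CPM, and the RNA helicase gene DDX21 at 0 to 6.05 CPM. NOP14, a small subunit factor, was listed at 0 CPM in all 3 H1792 samples with DMSO and at 0, 23.5 and 58.0 CPM with RG7112. The translation elongation factor gene EEF1A1, which every cell uses at a high level, was likewise listed at only 8.81 to 20.1 CPM, and EEF2 at 10.1 to 114 CPM, while GAPDH was at 22218 to 41641 CPM. Both elongation factor genes were picked after their values were seen. The table may therefore not hold all reads of a gene, and a low value is not read here as low expression. FBL and BOP1 carried the same counts in all 12 samples as a second identifier each, so their reads may be shared with a copy of the gene and their levels are uncertain.

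Upstream sequence is shown for 4 members that the results below return to: FBL and NOP56, which fell in both cell lines, NPM1, whose levels moved apart between the lines, and UTP4, which was tested in both lines and carries the MYC binding word CACGTG. Each is the last 100 bases before the transcription start in RefSeq (GRCh38.p14), 5′ to 3′ on the gene's strand, in lower case with CACGTG in capitals. The FBL stretch lies at chr19:39846380-39846479 on the minus strand, and the others on the plus strand, at chr20:2652532-2652631 for NOP56, chr5:171387016-171387115 for NPM1 and chr16:69132549-69132648 for UTP4. RefSeq gives NPM1 2 windows, of which the one with the lower start is shown.
FBL: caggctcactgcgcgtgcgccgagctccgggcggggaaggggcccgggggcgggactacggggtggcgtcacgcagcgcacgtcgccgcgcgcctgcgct
NOP56: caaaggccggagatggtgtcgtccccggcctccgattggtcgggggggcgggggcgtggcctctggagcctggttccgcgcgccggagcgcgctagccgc
NPM1: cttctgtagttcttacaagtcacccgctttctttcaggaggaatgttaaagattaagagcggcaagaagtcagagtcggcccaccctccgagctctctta
UTP4: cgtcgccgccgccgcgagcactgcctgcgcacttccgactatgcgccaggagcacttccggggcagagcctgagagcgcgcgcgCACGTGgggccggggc
In the 250 bases before the start, 30 members had a window, 37 windows in all, and CACGTG, which reads the same on both strands, stood in 4 windows (10.8%). These belonged to DDX21, NOP10, UTP20 and UTP4. Over all 35116 RefSeq windows of that length the share was 6.34%, and over the 138 windows of other ribosome biogenesis genes it was 13.8%. TCOF1, NOLC1, NOP58 and MYC, which fell in A549, have no window, and none of the 6 windows of the other members that fell there held the word, which says only that these letters are not in these windows.

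In A549, RG7112 lowered 9 of the 31 members that passed the filter on low counts and raised 1. The 9 were the transcription factor gene MYC, the polymerase I partners TCOF1 and NOLC1, the snoRNP genes FBL, NOP56, NOP58 and DKC1, the large subunit factor GRWD1 and NPM1. BOP1 rose. All 10 were DEGs. Among all 10739 genes tested, 4.03% fell and 4.35% rose, and 3.01% and 3.18% were DEGs in those directions. The log2 fold change was below 0 for 29 of the 31 members, with a median of −0.69, against −0.01 over all genes tested. Without any overlap between the 2 groups, 17 members were lower (background 16.3%) and 1 was higher (background 16.2%). Without A549 DMSO replicate 2, 5 members fell, beside 164 of 11130 genes, in place of 433 of 10739. Without replicate 3 of both treatments 12 members fell, including the same 9, beside 571 of 11096 genes. Cycling markers fell alongside: 4 of 6 were called lower in A549, MKI67 from 419 ± 86.2 to 20.5 ± 2.14 CPM, and their part in the fall of the members was not tested.

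**Figure D1:**
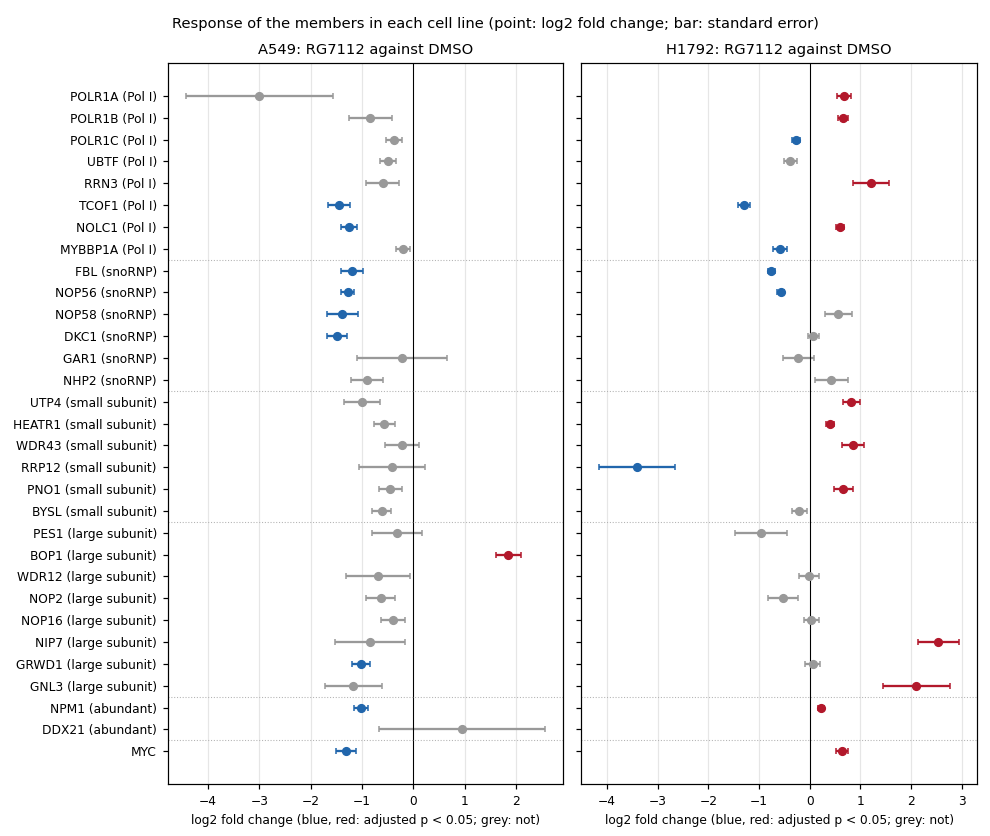
Log2 fold change with RG7112 against DMSO (x axis) of each member tested in A549 (left) and H1792 (right), 3 replicates per group, grouped by role. Points are edgeR estimates, bars are standard errors, blue and red mark an adjusted p under 0.05, and grey marks the rest. In A549 all but 2 of 31 estimates are below 0, whereas in H1792 they lie on both sides.

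In H1792, members moved in both directions: of 29 tested, 6 fell and 12 rose. The 6 that fell were TCOF1, MYBBP1A, POLR1C, FBL, NOP56 and RRP12. The 12 that rose were POLR1A, POLR1B, RRN3, NOLC1, UTP4, HEATR1, WDR43, PNO1, NIP7, GNL3, NPM1 and MYC. Across the 9914 genes tested in this line, 16.5% fell and 17.7% rose, so calls in either direction were common. As DEGs, 2 members fell (background 4.34%) and 3 rose (background 10.3%). The median log2 fold change of the members was 0.07, against 0.01 over all genes. Without overlap between the groups, 7 members were lower (background 28.4%) and 11 were higher (background 24.9%). The counts changed when single samples were left out, and so did those of all genes. Without H1792 DMSO replicate 2, 6 members rose, beside 1099 of 10293 genes, in place of 1752 of 9914. Without H1792 RG7112 replicate 2, 7 members rose and 3 fell. Over 10093 genes, 916 rose and 935 fell in that fit, in place of 1752 and 1632. Of the 6 cycling markers, 3 were called higher in H1792 (CCNB1, CDK1 and MCM2), while MKI67 was at 351 ± 13.9 CPM with DMSO and 346 ± 52.3 CPM with RG7112, and their part in the changes of the members was not tested.

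The H1792 changes also followed base composition. Over 9165 genes, Spearman's rho between the log2 fold change and the GC content of the transcripts was −0.48, and over the 29 members it was −0.64. In A549 the values were 0.26 over 9941 genes and 0.02 over 31 members. Genes of 1 table share libraries and are not independent, so these are descriptions. In H1792, the members that rose had a median GC content of 43.8%, and those that fell 57.8%. After a correction of each sample for GC content, 7 members rose and 5 fell, beside 1315 and 1028 of 9165 genes. NPM1 and HEATR1 changed sign, to −0.24 and −0.092, neither of them called. Of the 7, 6 were among the 12 named above, and GRWD1 was added. TCOF1, FBL and NOP56 stayed called lower, at −0.84, −0.36 and −0.38, and MYC stayed called higher, at 1.02. What lies behind the trend with GC content was not tested.

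**Figure D2:**
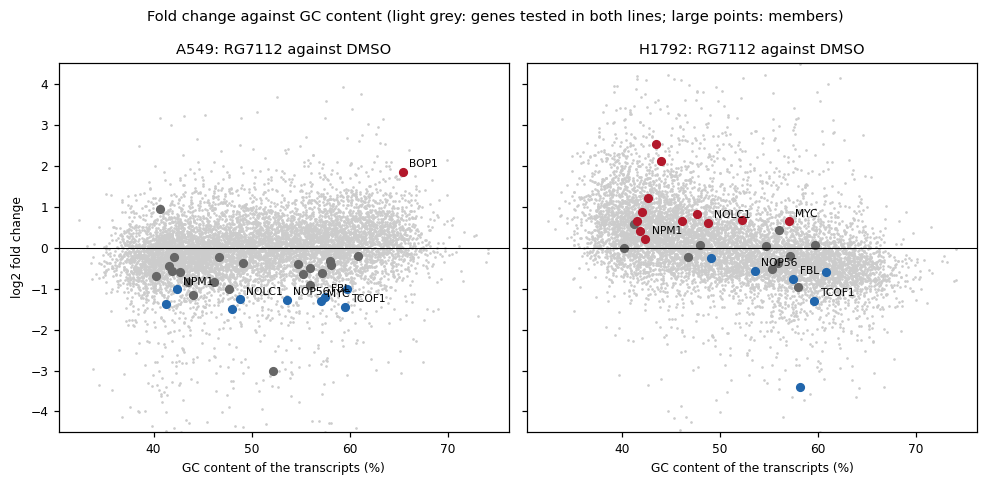
Log2 fold change with RG7112 (y axis) against transcript GC content in percent (x axis), with A549 on the left and H1792 on the right. Light grey points are genes tested in both lines, and large points are members, blue or red where called lower or higher and dark grey where not. The cloud slopes down in H1792 (rho −0.48), and the members follow it, with MYC above and TCOF1 below the genes of like GC content.

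TCOF1 encodes treacle, a nucleolar scaffold for RNA polymerase I and its upstream binding factor (ENSG00000070814, chromosome 5, 150357629 to 150400308 in GRCh38). The A549 samples had 274, 238 and 386 CPM with DMSO and 122, 94.4 and 112 CPM with RG7112. In H1792 the values were 538, 639 and 522 CPM with DMSO and 195, 212 and 247 CPM with RG7112. No treated sample of either line reached any control of that line. The log2 fold change was −1.44 ± 0.21 (SE) in A549 (2.72-fold lower, adjusted p = 0.0086) and −1.30 ± 0.11 in H1792 (2.46-fold lower, adjusted p = 0.0027). The responses of the lines differed by −0.07 on the log2 scale, with a 95% interval of −0.56 to 0.43 from the SE (adjusted p = 0.89), which does not show that they are equal. That interval was built from the normal distribution, which makes it too narrow for this few samples. TCOF1 had the smallest p of the polymerase I genes in H1792, and its call held under each of the 19 alternatives tried in A549 and the 18 in H1792.

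NOLC1, which encodes a nucleolar phosphoprotein that binds snoRNPs and polymerase I (ENSG00000166197, chromosome 10, 102152176 to 102163871), took opposite directions. It fell from 548.8, 512 and 411 CPM to 224, 203 and 189 CPM in A549, and rose from 593, 552 and 614 CPM to 791, 865 and 877 CPM in H1792. In both lines the treated and control samples were fully apart. The log2 fold change was −1.26 ± 0.15 in A549 (adjusted p = 0.0041) and 0.60 ± 0.08 in H1792 (adjusted p = 0.0047). The difference of −1.78 ± 0.17 between the responses had an adjusted p of 7.5e-05.

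The other polymerase I genes were not called in A549, where all 8 members of this role had estimates below 0. RRN3, the initiation factor that recruits the polymerase, rose in H1792 from 8.10, 5.31 and 4.36 CPM to 15.0, 15.5 and 8.85 CPM, by 1.21 ± 0.36 on the log2 scale (adjusted p = 0.040). The lowest treated sample lay just above the highest control, and the RRN3 call was lost in 8 of 18 alternatives, with 0.78 and an adjusted p of 0.16 after the GC correction. The subunit genes POLR1A and POLR1B rose in H1792 by 0.67 and 0.66, whereas the subunit gene POLR1C fell by 0.27 and MYBBP1A, a MYB-binding regulator of ribosomal RNA synthesis, fell by 0.59. The POLR1C call held in only 5 of 18 alternatives, and MYBBP1A lost its call in 8 of 18, with −0.093 after the GC correction (adjusted p = 0.71). UBTF, the upstream binding factor, had −0.49 ± 0.15 in A549 and −0.38 ± 0.13 in H1792, and neither passed the test (adjusted p = 0.092 and 0.061). It was called lower in 6 of 19 alternatives in A549 and in 3 of 18 in H1792. After the GC correction UBTF had −0.62 in A549 (adjusted p = 0.014) and −0.051 in H1792 (adjusted p = 0.76). POLR1A, the largest subunit, was listed in A549 at 65.9, 74.2 and 0.996 CPM with DMSO and at 8.99, 8.58 and 0 CPM with RG7112. Replicate 3 was near 0 in both treatments, and the difference was not called (adjusted p = 0.26). Without replicate 3 of both treatments POLR1A was called lower.

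The snoRNP genes had 4 DEGs among 6 tested in A549, all lower (background 3.01%), the most of any role. No role had more than 8 members tested. FBL encodes fibrillarin, the methyltransferase of box C/D snoRNPs (ENSG00000105202, chromosome 19, 39834458 to 39846414). Its A549 samples had 371, 433 and 587 CPM with DMSO and 190, 171 and 242 CPM with RG7112. In H1792 it had 848, 870 and 867 CPM with DMSO and 524, 474 and 456 CPM with RG7112. The groups did not overlap in either line, and the H1792 controls were close together. The log2 fold change was −1.21 ± 0.21 in A549 (adjusted p = 0.017) and −0.76 ± 0.07 in H1792 (adjusted p = 0.0027), the smallest p of the snoRNP genes in that line. The A549 call was lost in 4 of 19 alternatives, which were an adjusted p under 0.01 and leaving out DMSO replicate 2, RG7112 replicate 1 or RG7112 replicate 2, with adjusted p up to 0.078.

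NOP56, a core protein of the same particles (ENSG00000101361, chromosome 20, 2652145 to 2658393), fell in A549 from 746, 741 and 897 CPM to 327, 326 and 332 CPM. In H1792 it fell from 1075, 1205 and 1162 CPM to 775, 719 and 702 CPM. Treated replicates were close together in both lines and far from the controls. The fall was 2.42-fold in A549 (log2 −1.28 ± 0.13, adjusted p = 0.0020) and 1.49-fold in H1792 (log2 −0.57 ± 0.07, adjusted p = 0.0032). Unlike TCOF1 and FBL, for which no difference between the lines was called, NOP56 differed between them, by −0.63 ± 0.13 (adjusted p = 0.0094). The FBL response was nonetheless called lower in A549 in 3 of 24 alternatives, the GC correction among them, and that of TCOF1 in 0. NOP58, the partner of NOP56, fell as well in A549, with 28.7, 31.7 and 18.9 CPM with DMSO and 11.003, 11.9 and 7.61 CPM with RG7112 (log2 −1.38 ± 0.31, adjusted p = 0.037). That call was lost in 7 of 19 alternatives, with adjusted p up to 0.14. In H1792 NOP58 had 0.56 ± 0.27 and its groups overlapped (adjusted p = 0.14).

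DKC1 encodes dyskerin, the pseudouridine synthase of H/ACA snoRNPs (ENSG00000130826, chromosome X, 154762742 to 154777689). It fell in A549 from 90.6, 78.0 and 78.7 CPM to 34.6, 24.3 and 28.5 CPM (log2 −1.49 ± 0.19, adjusted p = 0.0055). In H1792 it had 124, 143 and 157 CPM with DMSO and 153, 130 and 140 CPM with RG7112. These H1792 groups covered the same range, with a log2 fold change of 0.07 ± 0.11 (adjusted p = 0.67), and the difference between the lines was called (−1.48 ± 0.21, adjusted p = 0.0012). The H/ACA partners NHP2 and GAR1 were not called in either line, with −0.91 ± 0.31 and −0.23 ± 0.88 in A549. GAR1 had at most 15.2 CPM in any sample.

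**Figure D3:**
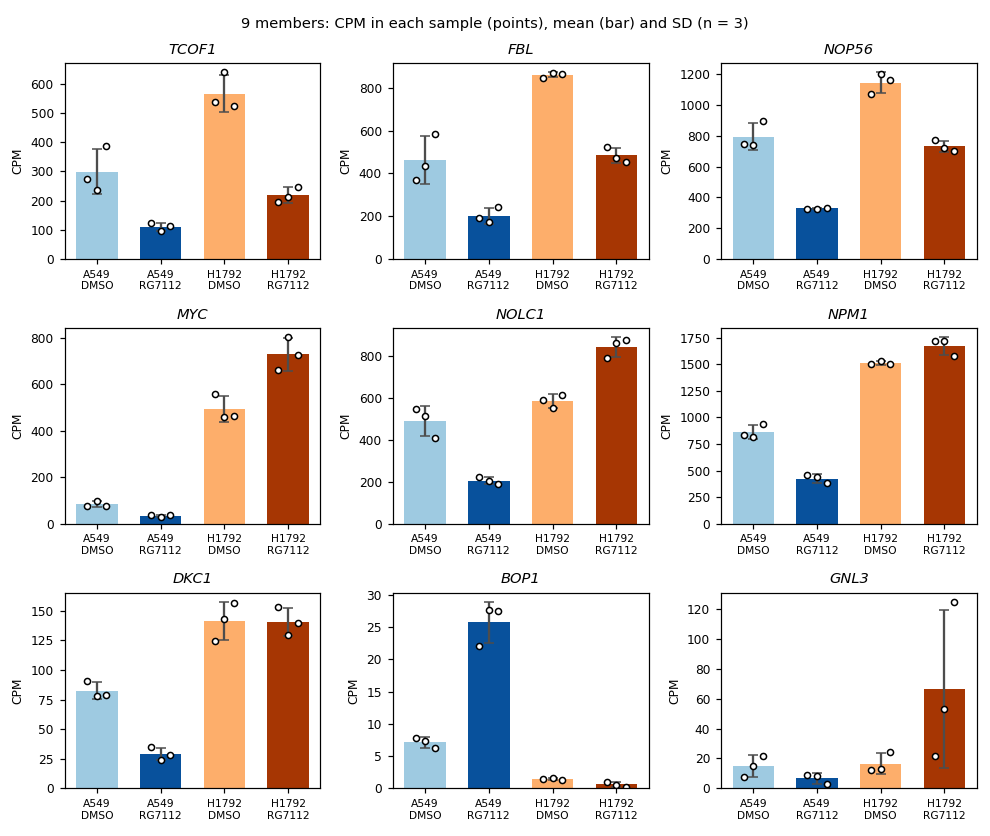
CPM (y axis, linear from 0) of 9 members in A549 and H1792 with DMSO or RG7112. Points are the 3 samples of a group, bars their mean, and error bars the SD. TCOF1, FBL and NOP56 are lower with RG7112 in both lines, MYC, NOLC1 and NPM1 are lower in A549 and higher in H1792, DKC1 is lower in A549, BOP1 is higher in A549, and the treated GNL3 samples of H1792 range from 21.4 to 125 CPM.

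No small subunit factor was called in A549 by edgeR, DESeq2 or limma-trend, although all 6 tested had estimates below 0, from −1.0 to −0.22, and 3 had an unadjusted p under 0.05 with each tool. The smallest p there belonged to BYSL, an assembly factor of the subunit, with 69.3, 67.9 and 88.7 CPM with DMSO and 42.2, 52.4 and 52.7 CPM with RG7112. Those groups did not overlap, yet the change of −0.62 ± 0.19 did not pass (adjusted p = 0.095). Further alternatives in A549 did call UTP4 lower, in 4 of 19, BYSL in 2 and HEATR1 in 1. After the GC correction BYSL had −0.77 (adjusted p = 0.029). In H1792, the early processing factors UTP4, HEATR1 and WDR43 and the late assembly factor PNO1 rose, by 0.82, 0.40, 0.86 and 0.66 on the log2 scale. The calls of PNO1 and WDR43 were lost in 12 and 9 of 18 alternatives, with 0.15 and 0.38 after the GC correction, and that of HEATR1 held in 10 of 18. UTP4, a part of the early complex that binds the growing precursor, went from 164, 143 and 134 CPM to 190, 268 and 279 CPM (adjusted p = 0.013). All treated samples were above all controls, and its difference between the lines was −1.74 ± 0.41 (adjusted p = 0.014). UTP4 is the member whose upstream sequence above contains CACGTG. RRP12, an export factor, fell in H1792 from 20.8, 145 and 48.0 CPM to 9.30, 4.09 and 5.82 CPM. The spread of the controls leaves the size of the change (log2 −3.41 ± 0.74, adjusted p = 0.015) loosely fixed, and the RRP12 and UTP4 calls were each lost in 5 of 18 alternatives.

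Among large subunit factors, BOP1 rose in A549 and GRWD1 fell. BOP1, a part of the PES1, BOP1 and WDR12 complex that processes the precursor of the large subunit, had 7.81, 7.34 and 6.23 CPM with DMSO and 22.0, 27.6 and 27.4 CPM with RG7112 (log2 1.84 ± 0.24, adjusted p = 0.0060). In H1792 it was listed at 0.233 to 1.62 CPM and did not pass the filter. All 3 treated A549 samples were above all other samples of the study, under the limit on its reads given above. PES1 and WDR12, its partners, were not called in either line, with −0.32 ± 0.49 and −0.69 ± 0.62 in A549. GRWD1, a histone and ribosome assembly chaperone, fell from 68.7, 82.9 and 68.2 CPM to 39.2, 31.0 and 37.8 CPM in A549 (log2 −1.02 ± 0.18, adjusted p = 0.017), a call lost in 5 of 19 alternatives. In H1792 its groups overlapped, with 0.06 ± 0.15.

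NIP7 and GNL3 rose in H1792 from low levels. NIP7, which acts in large subunit assembly, went from 11.6, 9.69 and 3.92 CPM to 31.3, 56.6 and 53.8 CPM (log2 2.54 ± 0.41, adjusted p = 0.0063), with no overlap. GNL3, which encodes nucleostemin, a nucleolar GTPase of stem and tumor cells, went from 11.98, 13.2 and 24.4 CPM to 21.4, 53.2 and 125 CPM. One treated sample lay below the highest control, and the call (log2 2.11 ± 0.66, adjusted p = 0.049) was lost in 11 of 18 alternatives. NOP2, an RNA methyltransferase, had −0.64 ± 0.28 in A549 and −0.53 ± 0.29 in H1792, and the assembly factor NOP16 had −0.40 ± 0.24 and 0.03 ± 0.14. None of these passed the test. NOP2, UTP4 and GRWD1 overlap another gene of the table on the same strand in GENCODE v29. POLR1C, RRN3, MYBBP1A, NHP2, UTP4, HEATR1, PNO1, PES1, WDR12, NOP16, NIP7 and GNL3 overlap one on the opposite strand. These overlaps are of whole gene spans, introns included, which does not show that reads were shared. How the reads of these genes were divided was not tested and is uncertain.

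NPM1 encodes nucleophosmin, an abundant nucleolar chaperone (ENSG00000181163, chromosome 5, 171387116 to 171411137). In A549 it fell from 838, 814 and 939 CPM to 455, 440 and 379 CPM, which is 2.03-fold (log2 −1.02 ± 0.13, adjusted p = 0.0049). In H1792 it had 1502, 1535 and 1500 CPM with DMSO and 1723, 1720 and 1578 CPM with RG7112. The H1792 groups did not overlap, but the rise of 0.22 ± 0.06 (adjusted p = 0.028) turned to −0.24 after the GC correction and held in 8 of 18 alternatives. The difference between the lines, −1.17 ± 0.13 (adjusted p = 0.00030), was called under each of the 24 alternatives.

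MYC had 77.2, 98.3 and 75.0 CPM in A549 with DMSO and 37.04, 28.1 and 35.0 CPM with RG7112. In H1792 it had 558, 458 and 463 CPM with DMSO and 659, 802 and 724 CPM with RG7112. So MYC was lower after RG7112 in every A549 sample and higher in every H1792 sample than in any control of that line. The log2 fold change was −1.32 ± 0.20 in A549 (2.49-fold lower, adjusted p = 0.0095) and 0.64 ± 0.12 in H1792 (1.55-fold higher, adjusted p = 0.0093). The responses differed by −1.87 ± 0.21 (adjusted p = 0.00024). Without A549 DMSO replicate 2 the adjusted p of the fall was 0.052. With a GC content of 57.0%, MYC rose in H1792 against the trend of GC-rich genes.

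**Figure D4:**
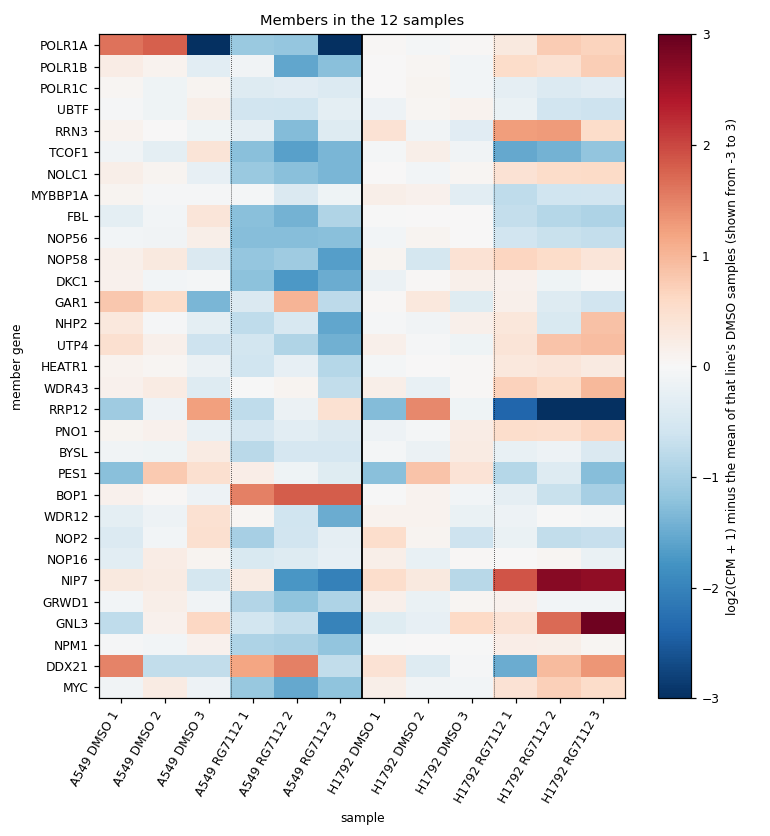
Members tested in at least 1 line (rows) in the 12 samples (columns), as log2(CPM + 1) minus the mean of the DMSO samples of the same line, with the colour scale ending at −3 and 3. The treated A549 columns are mostly blue, as 29 of 31 members had estimates below 0, and the treated H1792 columns are mixed. POLR1A is near 0 CPM in A549 replicate 3 of both treatments.

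Across the lines, TCOF1, FBL and NOP56 were lower in both, which was 0.817% of the 9181 genes tested in each line. MYC, NOLC1 and NPM1 were lower in A549 and higher in H1792, a pattern held by 0.697% of those genes. The NPM1 rise in H1792 held in 8 of 18 alternatives and turned to −0.24 after the GC correction. DKC1, GRWD1 and NOP58 were called in A549 and not in H1792. The test of the difference in response called 14 of 32 members lower in A549, against 11.4% of 11666 genes, and BOP1 higher, against 10.4%. With an absolute difference over 1 as well, 12 were lower (background 9.59%) and 1 was higher (background 7.78%). The median difference of the members was −0.95, and that of all genes 0.02. After the GC correction 10 members were lower, 8 of them among the 14, beside 999 of 10754 genes. POLR1B, RRN3, NOP58, HEATR1, PNO1 and GNL3 were no longer called, and BYSL and FBL were added.

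Without the drug, the members were mostly lower in A549 than in H1792. With DMSO, 15 of 32 members were lower in A549 (background 22.0%) and 3 were higher (background 25.6%). With an absolute difference over 1 as well, 6 were lower (background 14.5%) and 2 were higher (background 20.4%). The groups did not overlap for 18 members lower in A549 (background 27.5%) and 4 higher (background 30.9%). The median log2 difference was −0.72, against 0.09 over all genes. MYC had the smallest p and was 5.89-fold lower (log2 −2.56 ± 0.15, adjusted p = 2.3e-07), and NOP16 was 3.20-fold lower (log2 −1.68 ± 0.18, adjusted p = 2.3e-05). TCOF1, FBL, NOP56 and NPM1 were lower in A549 by 0.92, 0.89, 0.53 and 0.81 on the log2 scale. RRN3, PNO1 and BOP1 were higher in A549, by 1.68, 0.59 and 2.26. The PNO1 call was lost in 8 of 23 alternatives, the GC correction among them. BOP1 had only 4, 7 and 3 counts in H1792 with DMSO. All these comparisons of the lines share the DMSO samples with the responses. They compare 1 line with 1 line, for which the study's methods also name different media while the labels name the same. So p53 status and every other difference between the lines cannot be told apart.

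**Figure D5:**
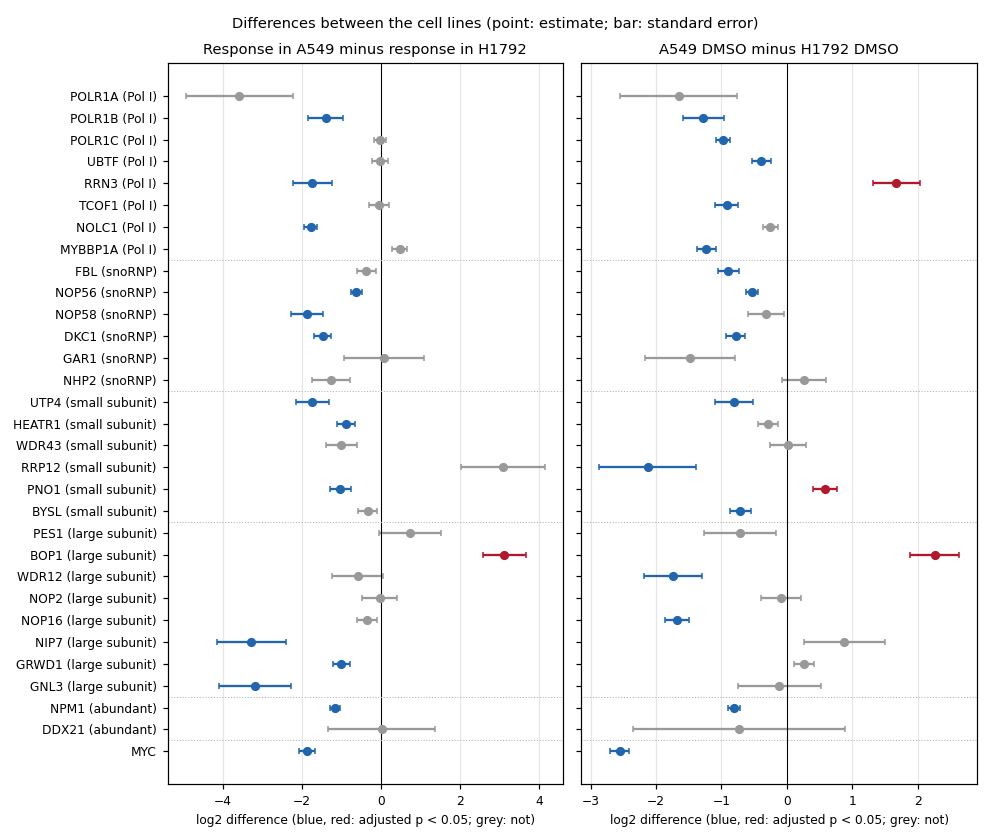
Log2 difference between A549 and H1792 (x axis) for each member, as the response to RG7112 in A549 minus that in H1792 (left) and as A549 minus H1792 with DMSO (right). Points are edgeR estimates over 12 samples, bars are standard errors, and blue or red marks an adjusted p under 0.05. NOP14, with samples at 0 counts in every group, is left out of the plot. MYC is below 0 in both panels, at −1.87 and −2.56, and TCOF1 is near 0 on the left, at −0.07.

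Per kilobase of median transcript length, NPM1, FBL and NOP56 were the highest members in A549. With DMSO their levels were 671 ± 51.7, 636 ± 152 and 488 ± 54.3 CPM per kilobase, so NPM1 and FBL did not differ beyond their spread. NOLC1 followed at 159 ± 23.1. In H1792 with DMSO the order was FBL at 1182 ± 15.7, NPM1 at 1174 ± 15.3, NOP56 at 705 ± 40.4 and MYC at 361 ± 41.2 CPM per kilobase. FBL and NPM1 were within their spread there too, and NPM1 came first when the longest transcript was used (860 against 743). MYC stood at 61.2 ± 9.44 CPM per kilobase in A549.

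The rest of the pathway was read from a list of 140 other ribosome biogenesis genes. In A549, 7 of 110 tested fell (background 4.03%), 94 had estimates below 0, and the median log2 fold change was −0.45. None rose by edgeR or DESeq2, also at an unadjusted p under 0.05, and limma-trend had 1 at that level and 0 after adjustment. The smallest p belonged to SART3, a recycling factor of spliceosomal RNA (−0.78 ± 0.13, adjusted p = 0.012), LAS1L, a factor that cuts the large subunit precursor (−0.68 ± 0.12, adjusted p = 0.017), and RUVBL2, an ATPase of snoRNP assembly (−0.86 ± 0.16, adjusted p = 0.022). In H1792, 31 of 113 fell (background 16.5%) and 16 rose (background 17.7%), with a median of −0.17. TSR1, a small subunit factor, rose there by 2.77 ± 0.27, from 4.76 ± 1.00 to 30.4 ± 6.15 CPM. NAT10, an RNA acetyltransferase, changed by −0.90 ± 0.10, and PELP1, a large subunit factor, by −0.57 ± 0.06. The adjusted p were 0.0028, 0.0031 and 0.0031. The response was lower in A549 for 20 of 118 of these genes (background 11.4%) and higher for 4 (background 10.4%).

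In the network of MYC partners and antagonists, 11 genes, MXD3 fell in A549 from 53.9 ± 6.28 to 6.83 ± 1.36 CPM (log2 −2.996 ± 0.25, adjusted p = 0.00099). MXD3 encodes a protein that competes with MYC for its partner MAX. MXD4 and MXI1, with the next smallest p, had 0.69 ± 0.22 and 0.59 ± 0.24 (adjusted p = 0.11 and 0.20). In H1792, 3 of 9 tested rose (background 17.7%). MXI1, another antagonist, went from 40.7 ± 2.31 to 57.7 ± 3.93 CPM (log2 0.58 ± 0.12, adjusted p = 0.014). MXD1 and MGA were called from levels of 0.117 and 1.201 CPM, to 4.32 ± 1.08 and 7.70 ± 2.66 CPM, and the starting level of MXD1 is below that of 3 counts.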

How the data were processed

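Poly-A RNA from 12 samples was sequenced. Per the study's methods and the submitters' processing notes, the authors estimated transcript abundances with kallisto 0.45.0 on Ensembl GRCh38 and added them up to genes with biomaRt. These estimated counts (expected counts) were left without normalization by the authors, who deposited them as whole numbers. The read length is 38 nt in the labels and 150 nt in the methods. Line, treatment and replicate number in the names of the 12 columns gave each its sample. Symbols, positions, GC content and length came from GENCODE v29, which held 18011 of the 20595 identifiers, and 3296 genes had no count. Promoters came from RefSeq. The study's methods name a directional module for the second strand, but the strand setting of the counting is not given in the sources used here.

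R 4.3.3 with edgeR 4.0.16 was used. The filter filterByExpr set a minimum count of 10 and a minimum total of 15, and counts were scaled by TMM and tested by the robust quasi-likelihood test with Benjamini-Hochberg adjustment over all genes, in each line separately. The difference in response and the DMSO comparison came from 1 fit over 12 samples. SEs were computed from the F statistic. Intervals and the floor of 3 counts cover counting or replicate error only, and duplicate reads cannot be seen. The members and all lists were chosen with earlier results of these data known. Values were given per sample for TCOF1, MYC, every DEG and the member of each role with the smallest p, with further members added where a result turned on them. From the other lists, the 3 genes with the smallest p in each line were named.

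Alternatives were DESeq2 1.42.0, limma-trend 3.58.1 (prior count 2), scaling by RLE or by library size only, at least 10 counts in every sample, no filter, a replicate block, a GC correction (loess per sample, span 0.5), both together, all 12 samples in 1 fit, other thresholds and leaving out each sample. Leaving out replicate 3 of both A549 treatments was added after seeing the data. The procedure was tested on simulated data.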

Additional observations from a re-analysis of the deposited data

Results flagged for a closer look

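The response to RG7112 differed between the cell lines for 15 members, by the interaction test over 12 samples in edgeR with an adjusted p under 0.05. Of all 11666 genes tested, 11.4% were lower and 10.4% were higher in A549 by this test. Differences are the A549 value minus the H1792 value, on the log2 scale. Among the polymerase I genes they were −1.41 for POLR1B, −1.74 for RRN3 and −1.78 for NOLC1. Among the snoRNP genes NOP56 had −0.63, NOP58 −1.88 and DKC1 −1.48. The small subunit factors UTP4, HEATR1 and PNO1 had −1.74, −0.89 and −1.03. In the large subunit group NIP7 had −3.29, GNL3 −3.19, GRWD1 −1.005 (adjusted p = 0.010) and BOP1 3.12, the last from an H1792 level of at most 1.62 CPM. NPM1 had −1.17 and MYC −1.87. The calls of NOLC1, DKC1, NPM1 and MYC held under each of 24 alternatives, and that of BOP1 under each of 23, whereas POLR1B lost its call in 14 of 24 and GNL3 in 10 of 24.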

How the results depend on the processing

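With the replicate number as a block, H1792 had 3 lower and 6 higher members in place of 6 and 12, and A549 had 13 lower. Over all genes, the block gave 893 lower and 947 higher of 9914 in H1792, in place of 1632 and 1752. In A549 it gave 425 lower of 10739, in place of 433. With the block and the GC correction, members numbered 2 lower and 4 higher in H1792 and 14 lower in A549. Over all genes these were 412 and 529 of 9165 in H1792 and 593 lower of 9941 in A549. Same-numbered samples were not shown to be paired: their deviations correlated at 0.12, 0.06 and 0.27 in A549 and at −0.024, −0.0018 and 0.0035 in H1792. Not every sample correlated best with its own number. In A549, replicate 3 of either treatment correlated at −0.21 to −0.13 with replicates 1 and 2 of the other treatment. Replicates 1 and 2 correlated at 0.14 and 0.10 across treatments. The main A549 fit has no term for this split. The GC correction alone left 7 members higher in H1792, beside 1315 of 9165 genes. All 12 samples in 1 fit gave 14 members lower in A549 and 6 higher in H1792. Over 11666 genes that fit gave 851 lower in A549 and 1303 higher in H1792. At an adjusted p under 0.01, H1792 had 3 members lower and 4 higher, beside 686 and 697 of 9914 genes. The difference in response then had 6 members lower, beside 460 of 11666 genes. With a fold change threshold, H1792 had 2 lower and 3 higher, and A549 with DMSO 6 lower. DESeq2 gave 3 members with a higher response in A549 in place of 1, beside 1627 in place of 1210 of 11666 genes. Leaving out replicate 3 of both A549 treatments gave 2 members, beside 1302 of 11860 genes. NPM1 in H1792 reversed to −0.24 with the GC correction and −0.24 with the block added, and HEATR1 to −0.092 in both. The cause was not tested.

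Leaving out 1 sample gave 5 to 9 members lower and 1 to 1 higher in A549, and 3 to 7 lower and 6 to 11 higher in H1792. It gave 10 to 15 lower and 1 to 2 higher for the response, and 12 to 15 lower and 2 to 3 higher with DMSO. Over all genes the counts moved too, to 164 to 350 lower in A549 (main fit 433). In H1792 they were 935 to 1685 lower and 916 to 1692 higher (main fit 1632 and 1752). For the response, 2 members were higher without A549 DMSO replicate 3, H1792 DMSO replicate 1 or H1792 DMSO replicate 3. With library size only, the median of all genes moved to 0.27 in H1792, where 2637 genes rose and 849 fell. It moved to −0.37 for the difference in response, where 2157 genes were lower. Members numbered 13 higher and 4 lower in H1792 and 19 lower for the response. Of the counts of members under all alternatives, 145 stayed within 1.5 times their value, 16 fell below that range and 7 lay above it. Low counts limit NOP10, UTP20, NCL, DDX21 and NOP14.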
